A study of Mus musculus with 1627 samples.

Results

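The cells described here are regulatory T cells (Tregs) from injured muscle in which at least 1 UMI of Klrg1 and no UMI of Il1rl1 was counted. A UMI is a molecular tag that marks 1 captured transcript. They were 28.4% of the 1368 muscle cells (27.7% in the first muscle library, 29% in the second), in a data set of 1627 cells in all. The study sorted Tregs from the spleen and from muscle and profiled them one by one with InDrops, a droplet method that primes cDNA from the poly(A) tail. Muscle gave 2 libraries, with 49.3% and 50.7% of the muscle cells, and spleen gave 1 library with 15.9% of all cells. All mice were male B6 Foxp3-Ires-Gfp animals, which carry a green fluorescent reporter behind the Treg transcription factor Foxp3, were 8 months old and had received cardiotoxin, a toxin that kills muscle fibres, in muscle 4 days earlier. Spleen and muscle cells thus come from injured mice alike, and no uninjured group is compared here. The sort took live cells (DAPI-) that stained for the T cell receptor beta chain and CD4 and carried the reporter. Muscle was digested with collagenase and dispase, whereas the spleen was dissociated mechanically. The labels do not say how many animals a library holds or whether the 2 muscle libraries come from different animals.

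Klrg1 (killer cell lectin-like receptor G1) is an inhibitory receptor of T and NK cells whose known ligands are cadherins, the adhesion proteins of epithelial and neural tissue. On T cells it marks cells far along in effector differentiation, and in Tregs it is found on effector-like cells that have met antigen and live in tissues. Il1rl1 encodes ST2, the receptor for the alarmin interleukin-33, which is the usual mark of tissue-repair Tregs in muscle and fat. In GENCODE M21 (GRCm38, the build of the deposited data under its other name mm10) the protein-coding gene Klrg1 lies on the minus strand at chr6:122270596-122282882 and Il1rl1 on the plus strand at chr1:40429570-40465415.

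Klrg1 and Il1rl1 were used to choose the cells, so their values are given as a description. In muscle library 1 the cells had a median of 2 Klrg1 UMIs and a maximum of 22. In muscle library 2 the median was 4 and the maximum 32. Cells that only just met the rule, with 1 Klrg1 UMI, made up 34.8% of them in library 1 and 13.4% in library 2. Cells with 4 or more UMIs made up 31.6% and 56.2%. Library 2 thus held more cells with a strong Klrg1 signal, and it was also the deeper library, with a median of 2487.5 UMIs per cell against 1976 in library 1.

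**Figure D1:**
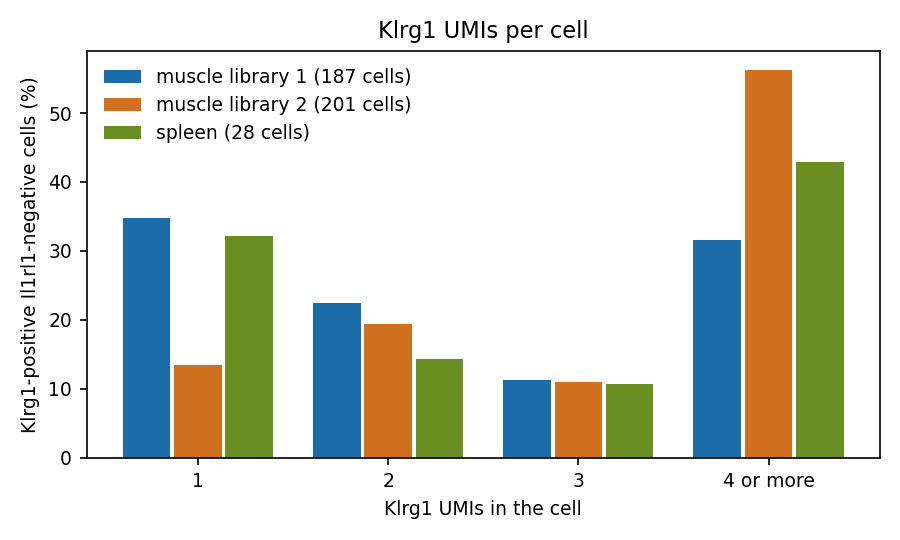
Share of the Klrg1-positive Il1rl1-negative cells (y axis, %) by the number of Klrg1 UMIs in the cell (x axis) in muscle library 1, muscle library 2 and spleen. Cells with 4 or more UMIs made up 31.6% of the cells in muscle library 1, 56.2% in muscle library 2 and 42.9% in spleen.

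The cells made up 27.7% of muscle library 1 (exact binomial 95% interval 24.4 to 31.3), 29% of muscle library 2 (25.6 to 32.5) and 10.8% of spleen (7.30 to 15.2). After every cell was thinned to 1000 UMIs the shares were 23.8%, 26.1% and 5.79%. The spleen share was the lowest at both depths although spleen cells were the deepest, with a median of 3541 UMIs. In library 1 a Klrg1 UMI was found in 56% of the cells with Il1rl1 (47.7 to 64.1) and in 35.7% of those without it (31.6 to 39.96). In library 2 it was found in 63% (54.8 to 70.6) and 37.2% (33.1 to 41.5). Thinned to 1000 UMIs, the same shares were 38.5% and 27.9% in library 1 and 47.3% and 30.1% in library 2. Klrg1 was therefore seen more often beside Il1rl1 than without it, but the Klrg1-positive cells without Il1rl1 outnumbered those with both receptors, of which there were 84 and 97. All of these intervals cover counting error only. A cell with a few transcripts can show none, so cells with 0 UMIs of a receptor may still express it, and free RNA in the droplets can give a UMI to a cell that does not express the gene. No sorted cell type here should lack Klrg1, so the level of such background was not tested.

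The Klrg1-positive cells were deeper than the muscle cells with neither receptor. Their median total was 2113 UMIs against 1823 in library 1, and 2635 against 2131 in library 2. Each was therefore paired within its library with 2 cells of neither receptor whose total UMIs lay closest. This could be done for 80.7% of the cells in library 1 and 74.6% in library 2, 150 cells with 300 comparison cells in library 2. Median totals of the matched sets were 1951 and 1906.5 UMIs in library 1 and 2397.5 and 2266.5 in library 2. The unmatched 36 and 51 Klrg1-positive cells enter the alternatives with 1 comparison cell each and with no matching. Levels below are given as CPM, a gene's UMIs divided by the summed UMIs of the set of cells and multiplied by 1000000. Because no label names an animal, cells are not replicates and no test was made. A gene needed 50 or more UMIs over the 4 sums to be examined, and is called higher or lower where each muscle library alone showed 1.5-fold or more in that direction. Exact intervals of single folds cover counting error only, and UMIs that come from the same cell make them too narrow.

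The cells carried the marks of Tregs. Foxp3 was at 590 CPM in the Klrg1-positive and 577.9 CPM in the comparison cells of library 1, and at 587.1 and 535.8 CPM in library 2 (1.02-fold, 0.85 to 1.22, and 1.10-fold, 0.93 to 1.29). Cd3e, a chain of the T cell receptor complex, was at 222.97 against 199.1 CPM and at 192.3 against 215.9 CPM. Cd4 was at 511.9 against 563.5 CPM (0.91-fold, 0.75 to 1.10) and at 556.4 against 710 CPM (0.78-fold, 0.67 to 0.92). None of the 3 genes reached 1.5-fold in either library. Of 14 markers of CD8 T and NK cells, 8 had no UMI in the matched Klrg1-positive cells, and the list summed to 87.9 CPM against 93.1 in library 1 and to 66.7 against 94.6 in library 2. Cd8a had 0 UMIs in library 1 and 1 in library 2, and Prf1 (perforin) and Eomes had none in either. The 18 myeloid markers had a higher sum, 1740 and 1749 CPM in the Klrg1-positive cells of library 1 and library 2. Most of this sum came from Ccr2, at 1018 and 1226 CPM, and Ctss, at 521.3 and 317.9 CPM. Of the 18 markers, 9 had no UMI in the matched Klrg1-positive cells.

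Of the 5512 genes examined, 2.52% were called higher in the Klrg1-positive cells and 3.39% lower. A further 5.19% passed 1.5-fold in opposite directions in the 2 libraries, so a gene near the UMI minimum that passes the rule carries little weight. Across genes the log2 folds of the 2 libraries correlated weakly (r = 0.05, a description, since genes are not replicates). The correlation was 0.31 over the 702 genes with 500 or more UMIs, and among these 4 genes were higher in both libraries, 1 was lower in both and 0 differed in opposite directions. The 4 higher genes were Gzmb, Id2, Hilpda and Dusp1, and the lower gene was Itgb1. Against the muscle cells with Il1rl1 and no Klrg1, described below, none of these 5 passed the rule. These 5 were singled out after their values were seen.

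**Figure D2:**
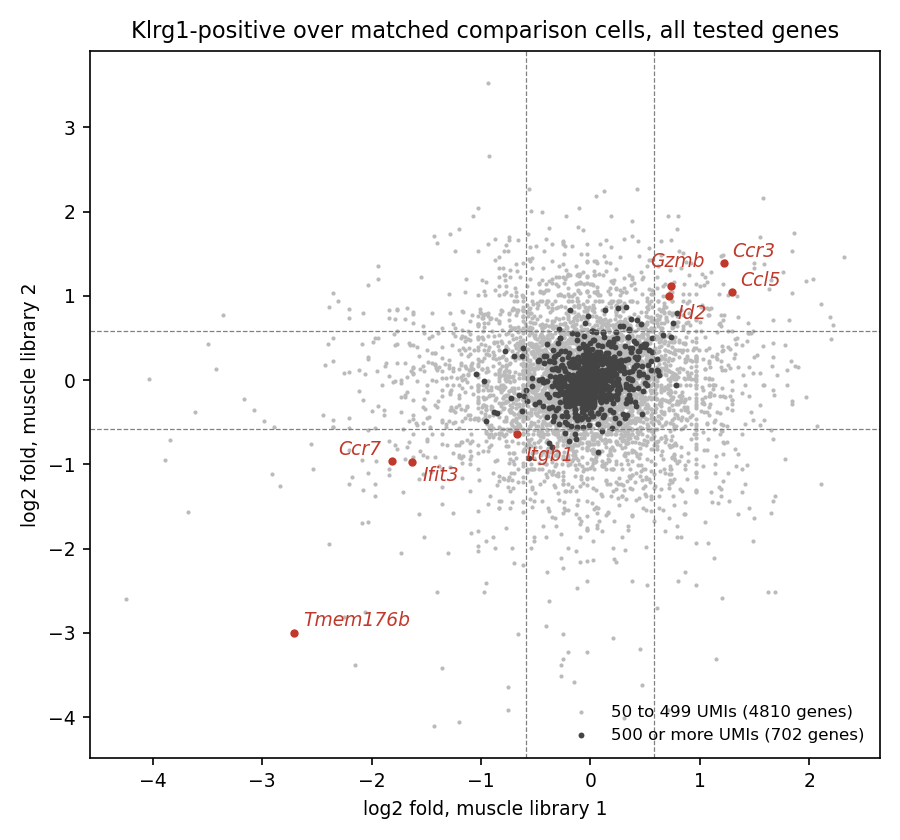
Log2 fold of the Klrg1-positive over matched comparison cells in muscle library 1 (x axis) and muscle library 2 (y axis) for each of the 5512 tested genes, with dashed lines at 1.5-fold and genes of 500 or more UMIs in dark grey. Most genes scatter without a shared direction, and Gzmb, Id2, Ccr3 and Ccl5 lie past 1.5-fold to the upper right.

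Gzmb was the gene with the most UMIs among those that passed. It encodes granzyme B, a serine protease of cytotoxic granules that Tregs also use. In library 1 the Klrg1-positive cells held 945 Gzmb UMIs (2968 CPM) and the comparison cells 1107 (1777 CPM), 1.67-fold higher (1.53 to 1.82). In library 2 the sums were 1263 UMIs (3238 CPM) and 1120 UMIs (1493 CPM), 2.17-fold higher (2.0 to 2.35). More of the cells had the transcript as well. Thinned to 1000 UMIs, Gzmb was found in 55.5% of the Klrg1-positive and 38.1% of the comparison cells of library 1, and in 57.3% and 30.1% of those of library 2. Without thinning the shares were 62.9% and 44.4%, and 66% and 38.3%. When at most 3 UMIs were counted per cell, the mean log2 fold of Gzmb over the 2 libraries was 0.70.

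Id2 encodes an inhibitor of DNA binding that favours effector over resting T cell states. It was at 942 against 573.1 CPM in library 1 (1.64-fold, 1.41 to 1.92) and at 759 against 378.6 CPM in library 2 (2.01-fold, 1.70 to 2.37), and was seen after thinning in 39% against 24.1% and in 34.7% against 18.2% of cells. Hilpda, a lipid droplet protein induced by hypoxia, was 1.73-fold higher in library 1 (380 against 220 CPM) and 1.74-fold higher in library 2 (453.8 against 261.3 CPM). Dusp1, a phosphatase that switches off MAP kinases, was 1.69-fold (1.42 to 2.0) and 1.60-fold higher (1.35 to 1.89). Dusp1 is also one of the genes that tissue digestion induces, and the part of digestion in its difference was not tested. Of 22 measured genes on the immediate early and digestion list, Dusp1 was higher and Jun and Hspa1b were lower. The median log2 fold of the list was -0.03, and that of all genes tested was -0.03. Nfil3, a basic leucine zipper factor of effector lymphocytes, was at 150.7 against 89.9 CPM and at 123.07 against 70.6 CPM (1.68-fold, 1.12 to 2.51, and 1.74-fold, 1.15 to 2.62). Id2 and Nfil3 were 2 of 13 measured effector Treg transcription factors to be higher. Ahr, the aryl hydrocarbon receptor, was lower, on 4 against 18 and 1 against 32 UMIs, and the other 10 did not pass. Gata3 was 1.47-fold higher in library 1 (1.2 to 1.80) and 1.17-fold in library 2 (0.93 to 1.47). Prdm1, which encodes Blimp1, was at 0.89-fold and 0.97-fold.

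**Figure D3:**
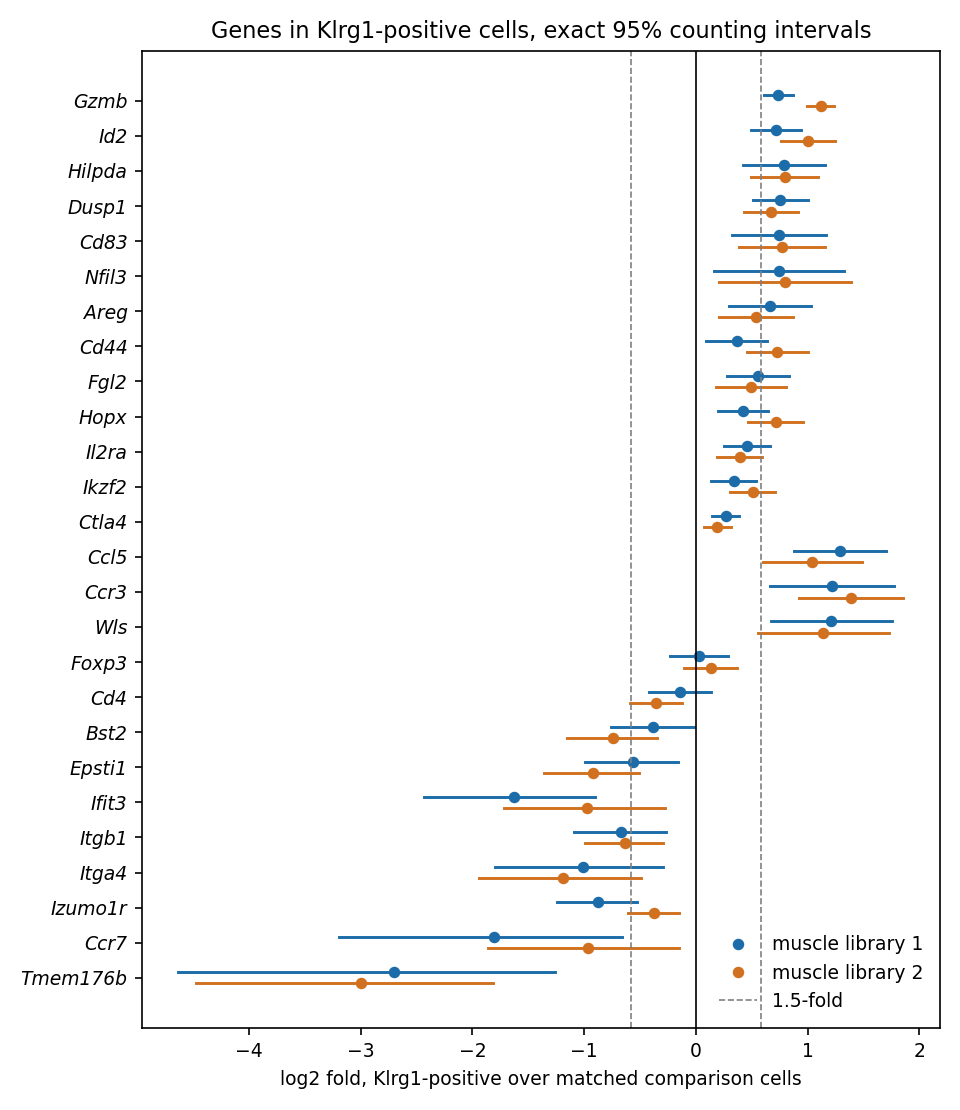
Log2 fold of the Klrg1-positive over matched comparison cells (x axis) for 26 genes in muscle library 1 and muscle library 2, with exact 95% intervals of the counts as lines, which cover counting error only. Gzmb and Id2 lie to the right in both libraries with narrow intervals, Foxp3 lies near 0, and Tmem176b lies farthest to the left.

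A few chemokine genes were higher. Ccl5, a chemokine of effector and memory T cells, was at 361.2 against 147.7 CPM in library 1 (2.44-fold, 1.84 to 3.25) and had 91 against 85 UMIs in library 2 (233.3 and 113.3 CPM, 2.06-fold, 1.52 to 2.80). The eotaxin receptor gene Ccr3 had 63 against 53 UMIs (197.9 and 85.1 CPM, 2.33-fold, 1.59 to 3.42) and 94 against 69 UMIs (241.01 and 91.97 CPM, 2.62-fold, 1.90 to 3.63). Ccr3 was found after thinning in 14.4% of the Klrg1-positive and 5.84% of the comparison cells of library 1, and in 18% and 5.41% of those of library 2. Its neighbour on chromosome 9, Ccr1, a receptor for inflammatory chemokines, was 3.10-fold (1.43 to 7.0) and 2.12-fold higher (1.10 to 4.09), on 19 against 12 and 22 against 20 UMIs. Cxcl2, a chemokine for neutrophils, was 2.31-fold higher in library 1 (0.96 to 5.70) and 2.79-fold in library 2 (1.73 to 4.56), where up to 19 UMIs came from a single comparison cell. Ccr7, the receptor for homing to lymph nodes, was 3.51-fold lower in library 1 (7 against 48 UMIs) and 1.95-fold lower in library 2 (16 against 60 UMIs). Of 11 measured chemokine receptors and ligands 3 were higher and 1 lower, and the median log2 fold of the list was -0.05 against -0.03 for all genes tested.

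The sensor of interleukin-2 and several receptors that mark activated Tregs lay above the comparison cells in both libraries without passing the 1.5-fold rule. Il2ra, the high-affinity chain of the interleukin-2 receptor, was at 1040 against 756 CPM (1.37-fold, 1.19 to 1.59) and at 854 against 650 CPM (1.31-fold, 1.14 to 1.51). The interleukin-2 and STAT5 genes as a list had no shared direction. Of 14 measured, none was called higher and Stat5a was called lower, and 3 lay above 1 and 5 below 1 in both libraries. Socs3 lay below 1 in both, at log2 folds from -0.72 to -0.57. The median log2 fold of the list was 0.12. Ikzf2, the Treg factor Helios, was 1.27-fold (1.10 to 1.46) and 1.42-fold higher (1.24 to 1.63). The checkpoint receptor gene Ctla4 was 1.2-fold (1.11 to 1.31) and 1.14-fold higher (1.05 to 1.24), and the costimulator Icos was at 1.01-fold in both. Tnfrsf9 (4-1BB) was 1.28-fold and 1.52-fold higher. Tnfrsf1b, the second TNF receptor, was 1.29-fold and 1.30-fold higher. Tnfrsf4 (OX40) was 1.24-fold and 1.33-fold higher. Of 10 measured costimulatory and TNF receptors none passed the rule, and 5 lay above 1 and 3 below 1 in both libraries. The median log2 fold of that list was 0.04, and Slamf1 lay below 1 in both, at log2 folds from -0.85 to -0.37. Of 14 measured Treg identity genes none passed 1.5-fold, but 8 lay above 1 in both libraries and 2 below 1 in both. Over all genes tested, 24.1% lay above 1 and 28% below 1 in both libraries.

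With the limit lowered so that a level 25% above that of the other cells was enough, 29 of the 702 genes of 500 or more UMIs were higher in both libraries (4.13%) and 13 were lower by the same ratio (1.85%), while 6 passed it in opposite directions. This smaller ratio was chosen after the data were seen. The 29 include Cd44, an adhesion receptor of antigen-experienced T cells (1.29-fold and 1.66-fold), Hopx, a homeodomain protein of effector T cells (1.34-fold and 1.64-fold), Fgl2, a secreted Treg suppressor protein (1.47-fold and 1.41-fold), and Cish, a feedback inhibitor induced by interleukin-2 (1.33-fold and 1.35-fold). Also among the 29 were the activation-induced genes Nfkbia, with the most UMIs of them (1.30-fold and 1.26-fold), Nfkbiz (1.66-fold and 1.43-fold) and Nr4a1 (1.45-fold and 1.28-fold). The part of tissue digestion in these was not tested. Of 11 measured T cell receptor activation genes, Myc was called higher by the 1.5-fold rule and none lower. In both libraries 4 of the 11 lay above 1 and 2 below 1, with a median log2 fold of -0.02. Egr1, another activation-induced gene, lay below 1 in both, at log2 folds from -0.86 to -0.50. The 13 lower genes include Izumo1r, the folate receptor 4 of Tregs (0.54-fold and 0.77-fold), and the interferon genes Bst2, Epsti1, Isg20 and Ifi47.

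Genes of the ST2-type tissue Treg programme leaned above 1, although these cells had no Il1rl1 UMI, and few passed the rule. Areg, which encodes the repair factor amphiregulin, was at 361.2 against 227.9 CPM in library 1 (1.58-fold, 1.23 to 2.04) and at 348.7 against 239.9 CPM in library 2 (1.45-fold, 1.15 to 1.83), so it did not pass. It was seen after thinning in 23.3% of the Klrg1-positive and 15.8% of the comparison cells of library 1, and in 22% and 13.9% of those of library 2. Of the 19 measured genes of the list, 3 (Ccr1, Cd83 and Il1rn) passed the rule, against 2.52% of all genes, and none was lower. Above 1 in both libraries lay 12 of the 19, and below 1 lay 2. The median log2 fold was 0.35, against -0.03 for all genes tested. Il10 was at 191.6 against 158.9 CPM in library 1 and at 161.5 against 165.3 CPM in library 2. For 2 of the 3 genes that passed, few cells made the difference. Il1rn, the interleukin-1 receptor antagonist, had 36 against 25 and 34 against 25 UMIs (2.82-fold and 2.62-fold), but 18 of the 36 came from 1 cell and 27 of the 34 from another, and with at most 3 UMIs counted per cell its mean log2 fold was 0.24. Cd83, a surface protein of activated lymphocytes, was 1.68-fold and 1.71-fold higher, yet seen in 16.6% against 15.2% and in 14% against 14.3% of cells, and with at most 3 UMIs per cell its mean log2 fold was 0.20.

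Interferon response genes formed the list with the most uniform direction. Of its 30 measured genes, 25 lay below 1 in both libraries and none above 1 in both, and the median log2 fold was -0.40. Past 1.5-fold in both libraries were 4 of them, all lower. Ifit3, an antiviral RNA-binding protein, was at 56.5 against 174.98 CPM in library 1 (3.10-fold lower, 1.87 to 5.42) and had 22 against 83 UMIs in library 2 (56.4 and 110.6 CPM, 1.96-fold lower, 1.21 to 3.30). Its near-identical copy Ifit3b could have shared some of these reads. Stat2, a transcription factor of the type I interferon receptor, was 1.94-fold lower on 14 against 53 UMIs and 5.30-fold lower on 5 against 51. Ifit2 and Ifi204 passed on 84 and 69 UMIs in all. Bst2, which tethers budding viruses, did not pass, at 1.30-fold (1.01 to 1.69) and 1.67-fold lower (1.27 to 2.23). Summed over the list, the cells held 10747 against 12526 CPM in library 1 and 10758 against 13207 CPM in library 2. In the median cell the list made up 0.88% against 0.96% of UMIs in library 1 and 0.86% against 1.04% in library 2. The difference was thus small per cell and ran in the same direction in both libraries. Ube2l6, the enzyme that conjugates the interferon-induced modifier Isg15, was also lower, with 7 against 62 UMIs in library 1 and 11 against 47 in library 2 (4.53-fold and 2.22-fold).

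**Figure D4:**
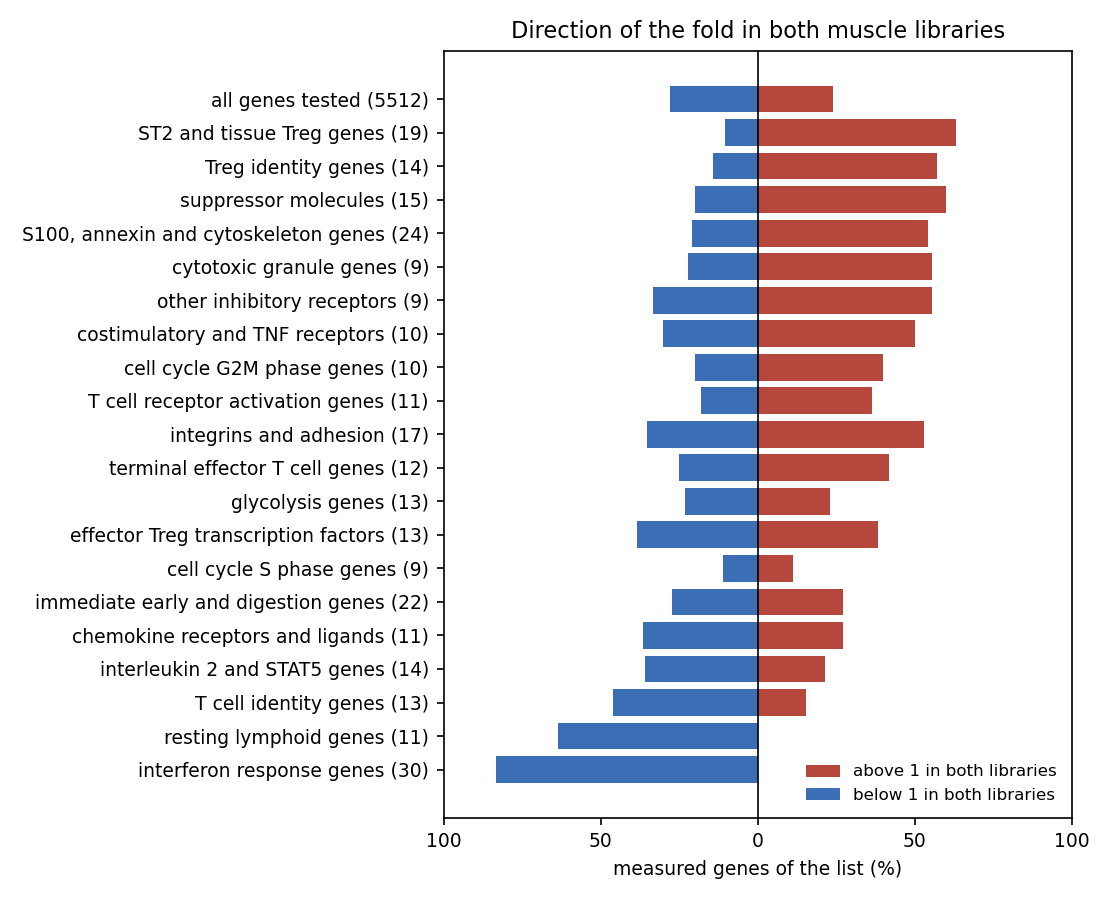
Share of the measured genes of each list (x axis, %, list size in brackets) whose fold lay above 1 (right) or below 1 (left) in both muscle libraries, for lists with 9 or more measured genes and for all genes tested. Interferon response and resting lymphoid genes have no gene above 1 in both libraries, and ST2 and tissue Treg genes lean to the right.

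Genes of resting and recirculating T cells leaned lower. Of 11 measured, 7 lay below 1 in both libraries and none above 1, with a median log2 fold of -0.31, but Ccr7 was the single one past 1.5-fold. S1pr1, the receptor by which T cells leave tissue and lymph node, was 1.57-fold (1.16 to 2.16) and 1.35-fold lower (1.01 to 1.83). Il7r lay above 1 in library 1 (1.29-fold) and below 1 in library 2 (0.84-fold). The beta1 and alpha4 integrin chains, which together form VLA-4, were both lower. Itgb1 was at 210 against 335.5 CPM (1.59-fold lower, 1.21 to 2.13) and at 235.9 against 366.6 CPM (1.55-fold lower, 1.22 to 1.99). Itga4 was at 62.8 against 126.8 CPM (2.02-fold lower, 1.22 to 3.48) and at 53.8 against 122.6 CPM (2.28-fold lower, 1.41 to 3.85). These were the 2 genes of 17 measured integrins and adhesion genes that passed, and the median of that list was 0.04.

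The gene with the largest difference in the lower direction among those named was Tmem176b, a cation channel family member known from dendritic cells. It had 4 UMIs in the Klrg1-positive and 51 in the comparison cells of library 1 (12.6 and 81.9 CPM, 6.52-fold lower, 2.40 to 24.8), and 6 and 92 in library 2 (15.4 and 122.6 CPM, 7.97-fold lower, 3.53 to 22.3). The comparison UMIs lay in 21 and 27 cells, with at most 14 and 10 in 1 cell. Tmem176a overlaps this gene on the opposite strand, and without a stated strand setting their reads cannot be told apart. Cybb, a subunit of the phagocyte NADPH oxidase, was 2.04-fold (0.97 to 4.83) and 4.08-fold lower (1.86 to 10.6). Ly6c2, a surface antigen of monocytes and some T cells with a close copy in Ly6c1, was 2.14-fold (1.09 to 4.58) and 2.0-fold lower (1.07 to 4.01). Of these 3 genes, Ly6c2 alone is on the list of 18 myeloid markers. That list summed to 1740 against 1836 CPM in library 1 and 1749 against 1797 CPM in library 2, with 9 of 18 at 0 in the Klrg1-positive cells. The part of myeloid transcripts in the result was not tested. Prkcq, the T cell receptor kinase PKC-theta, was 2.60-fold (1.35 to 5.51) and 2.02-fold lower (1.19 to 3.61).

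The remaining genes that the naming rule chose each rested on far fewer UMIs than Gzmb or Id2. Wls, which carries Wnt proteins to the cell surface, was 2.31-fold (1.59 to 3.37) and 2.20-fold higher (1.47 to 3.32). The GTPase gene Rhoc was 2.06-fold and 2.19-fold higher, the peptide transporter gene Slc15a3 2.26-fold and 2.03-fold, the metalloprotease gene Adam8 2.03-fold and 2.40-fold, and the kinase inhibitor gene Camk2n1 2.0-fold and 2.18-fold. Ptpmt1, Tmx1 and Cdt1 lay between 1.85-fold and 2.63-fold higher. In the lower direction, Nup50, Map3k5, Nxf1, Rnpepl1 and the histone gene Hist1h2ao lay between 2.04-fold and 3.47-fold lower in the 2 libraries. Of the 70 Hist1h2ao UMIs in the comparison cells of library 1, 39 came from 1 cell, and histone genes share near-identical sequence.

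The counts of the other groups can be read against 2.52% of all genes called higher and 3.39% called lower, and against 24.1% above 1 and 28% below 1 in both libraries. Of 9 other inhibitory receptors measured, none was called higher, and 5 lay above 1 and 3 below 1 in both libraries. Tigit was lower, on 3 against 14 and 8 against 28 UMIs. Pdcd1 (PD-1) was at 1.96-fold and 1.17-fold, and Havcr2 (TIM-3) at 2.07-fold and 1.42-fold, on under 50 UMIs per sum. Lag3 was at 1.11-fold and 1.28-fold. The 4 measured ligands and signalling partners of Klrg1 included none that passed. Of 12 terminal effector T cell genes, 3 (Gzmb, Id2 and Ccl5) were higher and Itgb1 lower, 5 lay above 1 and 3 below 1 in both libraries, and the median log2 fold was -0.02. Tbx21, the factor T-bet, had 14 against 31 and 6 against 18 UMIs (0.88-fold and 0.64-fold), and Zeb2 had 3 against 1 and 0 against 1. Of 9 cytotoxic granule genes, 2 (Gzmb and Ccl5) were higher, and 5 lay above 1 and 2 below 1 in both libraries. Lamp1, a lysosome membrane protein, was lower (2.13-fold and 1.56-fold). Granzyme A (Gzma) had 1 against 6 and 0 against 3 UMIs. Of 10 measured G2M genes, 13 glycolysis genes and 13 T cell identity genes, none passed in either direction. In both libraries 4 G2M genes lay above 1 and 2 below 1, and 3 glycolysis genes above and 3 below. Among the T cell identity genes 2 lay above 1 and 6 below 1 in both. Of 90 ribosomal protein genes none passed, although 80 had a mean log2 fold below 0, with a median of -0.11.

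The levels of these genes over the number of Klrg1 UMIs were compared without matching. Gzmb was at 1745 and 1584 CPM in the cells with neither receptor of library 1 and library 2. It was at 2645 and 2372 CPM in cells with 1 Klrg1 UMI, at 2867 and 3323 CPM with 2 or 3, and at 3621 and 2506 CPM with 4 or more. It was thus already higher in cells with 1 Klrg1 UMI, and beyond that increased with Klrg1 in library 1 and not in library 2. Id2 was at 580, 653.7, 741 and 1196 CPM over the same classes in library 1 and at 398.1, 718, 1057 and 746 CPM in library 2. Il2ra was at 740, 1115, 1217 and 1070 CPM in library 1 and at 671.4, 893, 969 and 882 CPM in library 2. The classes also differ in depth, with medians of 1730 and 2014 UMIs for cells with 1 Klrg1 UMI and 2693 and 2919 UMIs for those with 4 or more. The part of depth was not tested within them.

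The muscle cells with Il1rl1 and no Klrg1, 66 in library 1 and 57 in library 2, share sort and tissue with the Klrg1-positive cells, as all muscle cells here do. They were compared with all Klrg1-positive cells without Il1rl1, with no matching on total UMIs. Klrg1-positive cells enter this comparison and the one above, so the values of the 2 comparisons are not independent. By the same rule, 7.29% of 4210 genes were higher in the Klrg1-positive cells, 3.16% were lower and 7.75% passed in opposite directions. The Il1rl1-positive cells held 138488 and 152465 UMIs against 456160 and 613759, so a gene of few UMIs is poorly measured in them. Bhlhe40, a transcription factor of cytokine-producing T cells, was at 157.8 and 153.2 CPM in the Klrg1-positive cells and at 361.04 and 386.97 CPM in the Il1rl1-positive cells of library 1 and library 2 (0.30 to 0.64 and 0.28 to 0.56 as intervals of the ratio). In cells with both receptors it was at 396.2 and 410 CPM. Cxcr4, the receptor for the stromal chemokine Cxcl12, was at 346.4 and 263.95 CPM against 780 and 616.5 CPM, and at 314.6 and 251.8 CPM in cells with both receptors. Thus cells with both receptors lay near the Il1rl1-positive cells for Bhlhe40 and near the Klrg1-positive cells for Cxcr4. The chemokine receptor gene Ccr4 had 30 against 21 and 49 against 23 UMIs in these sets and was lower in the Klrg1-positive cells as well. Lower on the same rule were Slk, Irf2bp2, Kif21b, Cfap74 and March6.

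Higher than in the Il1rl1-positive cells was Il10, the suppressive cytokine, with 88 against 9 UMIs in library 1 (192.9 and 65 CPM) and 73 against 6 in library 2 (118.9 and 39.4 CPM). Cells with neither receptor had 150 and 163.2 CPM of Il10, so it was the Il1rl1-positive cells that stood apart. Laptm4b, a lysosome membrane protein, had 63 against 3 and 52 against 1 UMIs. Satb1, a chromatin organizer, had 67 against 6 and 52 against 3. Fabp5, a fatty acid binding protein, was at 129.3 against 43.3 and at 172.7 against 52.5 CPM. Chmp5, Ctsz, Polr2g and Faah were higher with 3 to 7 UMIs in the Il1rl1-positive cells of each library. Ccl5 was 6.38-fold (2.85 to 17.7) and 2.04-fold higher (1.19 to 3.75). Gzmb, Id2, Hilpda and Dusp1, higher than in cells with neither receptor, did not pass the rule against the Il1rl1-positive cells. Gzmb was at 1.499-fold in library 1 and 1.17-fold in library 2, and Id2 at 1.62-fold and 0.99-fold. Hilpda was at 0.92-fold and 0.97-fold, and Dusp1 at 0.95-fold and 1.82-fold. Ccr3, Wls, Rhoc and Nfil3 did not pass either. Ccr3 was at 0.71-fold and 1.18-fold, and Wls at 0.99-fold and 1.03-fold. Rhoc was at 0.91-fold and 0.83-fold, and Nfil3 at 0.87-fold and 0.94-fold. Ccr1 and Cxcl2 did pass, on 1 to 4 UMIs in the Il1rl1-positive cells of each library. Areg had no shared direction, at 0.52-fold in library 1 (0.40 to 0.67) and 1.23-fold in library 2 (0.89 to 1.74). The interferon list, lower than in cells with neither receptor, had a median log2 fold of 0.06 against the Il1rl1-positive cells, close to the 0.05 of all genes tested there. The ST2 and tissue Treg list, which leaned above cells with neither receptor, had a median of -0.015 against the Il1rl1-positive cells. Of its 19 measured genes 3 were higher and 1 lower, beside 7.29% and 3.16% of all genes.

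**Figure D5:**
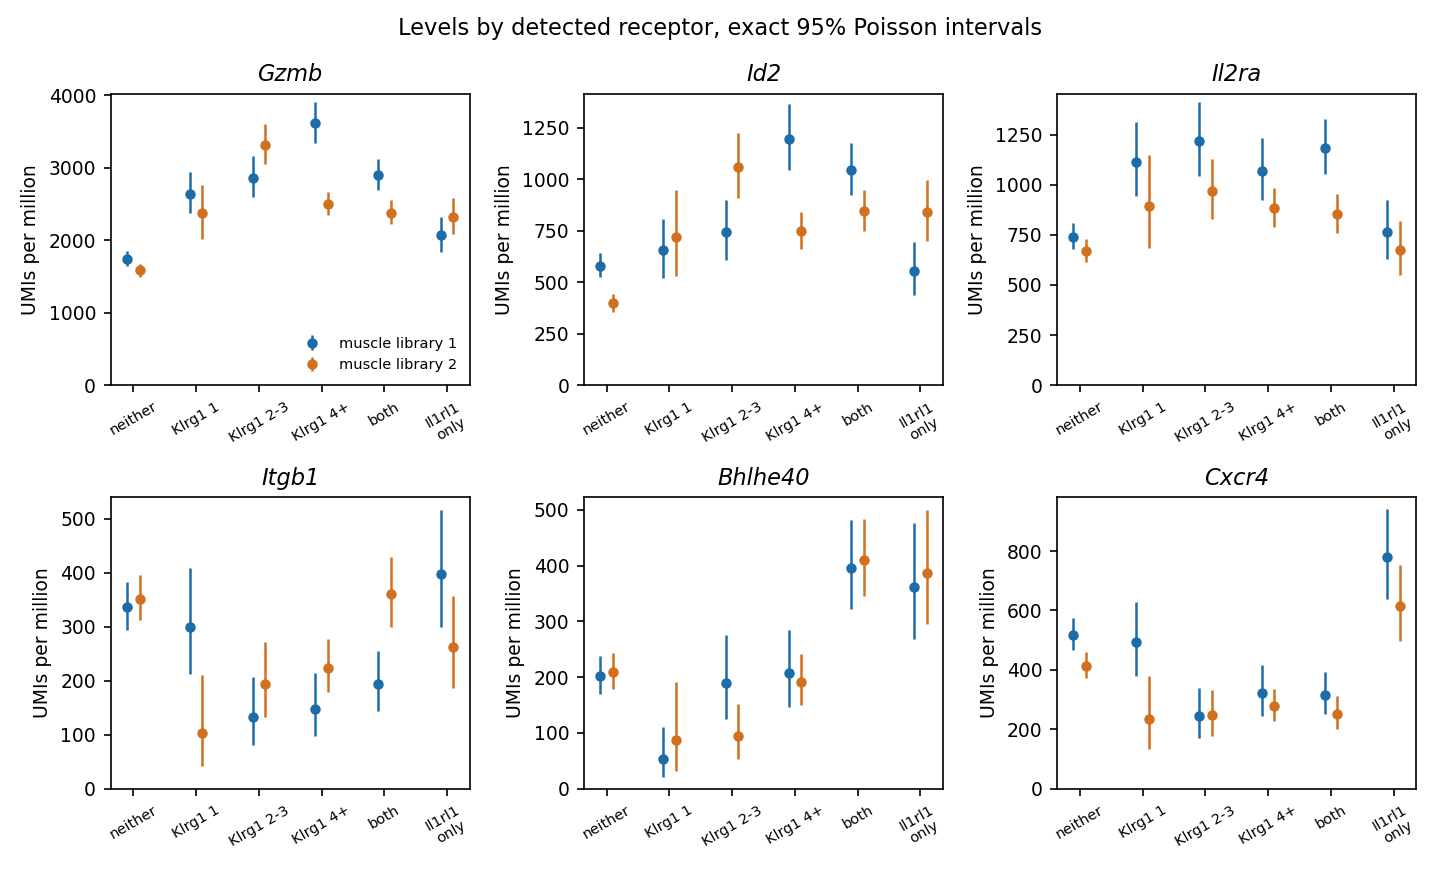
CPM (y axis) of 6 genes in muscle cells grouped by detected receptor (x axis: neither, Klrg1 only with 1, 2 to 3 or 4 and more UMIs, both, Il1rl1 only) in muscle library 1 and muscle library 2, with exact 95% Poisson intervals that cover counting error only. Gzmb and Il2ra are lowest in cells with neither receptor in muscle library 2, and Bhlhe40 is highest in the cells with Il1rl1.

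Spleen cells did not enter the choice of genes. In spleen, 27 of the 28 Klrg1-positive Il1rl1-negative cells were matched with 54 cells of neither receptor. Among 4489 genes with 10 or more UMIs, 27.9% were at least 1.5-fold higher and 29.6% at least 1.5-fold lower, so single genes are poorly measured at this number of cells. Of the 12 genes named as higher in muscle, 8 were at least 1.5-fold higher in spleen and 1 lower. Of the 12 named as lower, 4 were lower and 4 higher. Gzmb was found in 11 of the 27 Klrg1-positive cells (1849 CPM) and in 0 of the 54 matched cells. Over all 220 spleen cells with neither receptor it was at 28.4 CPM, against 1744 CPM in all 28 Klrg1-positive cells. Id2 was at 410.96 against 201.97 CPM (2.03-fold, 1.33 to 3.11). Ccl5 was at 539.4 against 98.8 CPM (5.46-fold, 3.34 to 9.22), and Areg at 890 against 98.8 CPM (9.01-fold, 5.69 to 14.8). Ccr7 was 6.06-fold lower (3.37 to 12). Gzmb, Id2, Ccl5, Areg and Ccr7 thus lay in the same direction in the Klrg1-positive cells of all 3 libraries. Interferon response genes did not. Of 20 measured in spleen, 15 lay above 1 and 5 below, and the list summed to 8682 against 5320 CPM. Across all measured genes 48.6% lay above 1 in spleen. Whether the spleen and muscle values differ was not tested.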

How the data were processed

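The authors deposited 1 table of raw UMI counts for 23725 genes in 1627 single cells. Per the submitters' processing notes, reads were handled with TopHat2 and SAMtools on mm10, versions not given. How cells were filtered, UMIs collapsed and strand treated, and with which gene models, is not given in the sources used here. Mitochondrial transcripts were not analysed here. Columns were assigned to cells by the labels, and 0 columns of values were left unused. Muscle library 1 held 674 cells, muscle library 2 694 and spleen 259, of which 187, 201 and 28 met the rule, in muscle 388 in all. Summed UMIs per library were 1533277, 1916496 and 982570 for muscle library 1, muscle library 2 and spleen, and cells had at least 756 UMIs. No cell was removed and no doublet caller was run. Cells above 3 times their library's median UMIs numbered 12, 7 and 0, of which 3 and 4 were Klrg1-positive without Il1rl1. Muscle library 1 shared 11 cell barcodes with muscle library 2 and 1 with spleen.

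The cells, gene lists and comparisons were chosen with earlier results of these data known. Matching took each Klrg1-positive cell in turn and its 2 nearest unused cells within 0.1 log2 of total UMIs. Matching without reuse and that limit were set after the files were seen, from the numbers of cells and UMIs. It paired 151 cells with 302 in muscle library 1 and 150 with 300 in muscle library 2. UMIs were summed per library and set of cells and divided by their total. Of 5512 genes 139 were higher and 187 lower, and 286 passed in opposite directions, and over Il1rl1-positive cells 307, 133 and 326 of 4210. Where a sum was 0 a floor of 3 counts stood in its place. Intervals are exact at 95% (conditional binomial for folds, Poisson for levels, binomial for shares), and cover counting error only. Thinning to 1000 UMIs drew without replacement with seed 1, and left out 32 muscle cells with fewer. The fold rule was tested on simulated data. Genes were named by rule: with 100 or more UMIs and a smaller absolute log2 fold above the difference between libraries, the 12 higher and 12 lower with the largest smaller fold (8 each against Il1rl1-positive cells), without ribosomal, predicted and receptor segment genes, up to 4 genes per list by mean log2 fold, and Klrg1, Il1rl1, Foxp3, Cd4 and Cd3e. Hilpda, Hopx, Bst2, Epsti1, Isg20, Ifi47, Ifit2, Ctla4, Icos, Gata3, Prdm1, Il7r, Lag3, Pdcd1, Havcr2, Cd8a, Gzma, Prf1, Eomes, Tbx21, Zeb2, Nfkbia, Nfkbiz and Nr4a1 were named after their values were seen. Some genes that the rule chose are not reported here. Alternatives were scaling with edgeR 4.0.16 (TMM) or DESeq2 1.42.0 size factors, which supplied factors and no test, other matching, UMI minimums, folds, weights and leaving out a library. Added after the data were seen were the 500 UMI minimum, the limit of 25% above the other cells with it and the limit of 3 UMIs per gene and cell. Gene positions come from GENCODE M21, which held 22822 of the 23725 symbols. Calculations used R 4.3.3 and Python 3.11.15 with scipy 1.17.1, pandas 2.3.3 and numpy 2.4.6.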

Additional observations from a re-analysis of the deposited data

Results flagged for a closer look

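For 4 of the genes that the naming rule chose the counting intervals lay on one side of 1 in both muscle libraries and on the other side in spleen, and the difference between the tissues itself was not tested. Camk2n1 was higher in the Klrg1-positive cells of both muscle libraries and had a log2 fold of -0.74 in spleen, on 0 UMIs in the Klrg1-positive and 10 in the matched cells. Tmem176b was lower in both muscle libraries and had a log2 fold of 2.22 in spleen, on 7 UMIs in 2 cells against 0. Ube2l6 was lower in muscle and had a log2 fold of 2.41 in spleen, on 8 UMIs against 3. Hspa1b, a heat shock gene with a near-identical copy in Hspa1a, had a log2 fold of 1.73 in spleen, on 15 UMIs in 2 cells against 9 UMIs in 4 cells, and had 6 against 49 and 3 against 39 UMIs in muscle. The Tmem176b, Camk2n1 and Ube2l6 spleen values rest on fewer than 12 UMIs each.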

How the results depend on the processing

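No paired analysis was possible because the labels number cells and not animals. Against 2.52% of genes higher and 3.39% lower, 9 alternatives (1 comparison cell per Klrg1-positive cell, no matching, totals without ribosomal protein genes, TMM or DESeq2 scaling, equal weight per cell, a Klrg1 minimum of 2 UMIs, no very large cells, or at most 3 UMIs per gene and cell) gave 2.16% to 2.87% higher and 2.74% to 4.37% lower. The number of genes examined changed in others. Thinning left 3042, of which 2.37% were higher and 3.16% lower, a UMI minimum of 20 left 7923 (4.03% and 5.39%), of 200 left 1870 (0.91% each, 17 and 17 genes), of 500 left 702 (0.57% and 0.14%, 4 genes and 1), and no minimum 13383 (2.82% and 3.73%). A limit of 25% in place of 1.5-fold gave 7.22% and 8.73% (4.13% and 1.85% with 500 UMIs), and of 2-fold 0.51% and 0.85%. A single muscle library gave 12.5% to 13.4% higher and 15.6% to 15.7% lower. Over Il1rl1-positive cells, with 7.29% and 3.16%, thinning gave 4.42% and 2.62% of 1834 genes, 2-fold gave 2.52% and 0.71%, and a single library 21.7% to 23.2% higher and 15.2% to 15.99% lower. Laptm4b had a mean log2 fold over cells with neither receptor of 0.78, and of -0.0233 after thinning. None of the 12 higher and 12 lower named genes changed direction under the 19 alternatives each, though 44 and 24 of the values moved by more than the spread between libraries. Part of this was fixed in advance. Another UMI minimum or fold limit leaves a gene's fold as it is. Leaving out a library could not change a direction either, because each named gene had passed in each library alone. The median of the interferon list ran from -0.52 to -0.40 over alternatives that kept both libraries and from -0.38 to -0.24 in single libraries. Gzmb ran from 0.70 to 1.0 and Id2 from 0.59 to 1.02. Thinned to 1000 UMIs, the share of Klrg1-positive cells without Il1rl1 went from 27.7% to 23.8% (muscle library 1) and from 10.8% to 5.79% (spleen). A minimum of 2 Klrg1 UMIs made it 18.1% and 25.1% in muscle libraries 1 and 2. Depth limits genes of under 200 UMIs.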
